A study of Homo sapiens with 9 samples.

Results

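MYC, MYCN, MYCL, MAX, MXD1, MXD3, MXD4, MNT, MLX and MGA belong to 1 network of transcription factors. These 10 genes were taken by symbol from the 32906 genes listed for each library, whatever their level. The cells carry the label Huh7, the name of an established human hepatocellular carcinoma line, and had been transfected with the control siRNA Scramble or with 1 of the siRNAs Si-KDM4C#1 and Si-KDM4C#2, both against the histone demethylase KDM4C. RNA was taken 48 hours after transfection from 3 libraries per group. The labels number these libraries but do not tell whether they came from separate cultures, so the p-values measure only the spread between these libraries.

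The network works through dimers. MAX pairs with MYC, MYCN or MYCL to activate transcription at E-box motifs, and it also pairs with the MXD proteins, MNT or MGA, which repress at the same motifs. MLX is a parallel partner that pairs with MXD1, MXD4, MNT and the nutrient-sensing factors MLXIP (MondoA) and MLXIPL (ChREBP). In hepatocellular carcinoma MYC is a known driver, and its mRNA and protein are both short-lived.

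KDM4C mRNA was measured first, as a check of the labels. It stood at 4.88, 4.63 and 4.57 FPKM in the Scramble libraries, at 1.18, 1.1 and 1.13 after Si-KDM4C#1 and at 0.256, 0.349 and 0.256 after Si-KDM4C#2. FPKM are fragments scaled by exon length and by the fragments counted in the library, so they can be compared between genes. The groups did not overlap, and the mean after Si-KDM4C#2 was 0.252 times that after Si-KDM4C#1 (adjusted p = 2.4e-05, limma on log2(FPKM + 1)). KDM4B, a paralog of KDM4C named here after its values were seen, averaged 0.187 times its Scramble level after Si-KDM4C#2 (adjusted p = 1.43e-07, limma) and 0.919 times that level after Si-KDM4C#1 (adjusted p = 0.24). The libraries held 14597503 to 18058556 fragments, and none stood apart in depth. All 9 listed hepatocyte and hepatoma markers were under 1 FPKM in every library, so the label Huh7 is not borne out by these mRNAs, and ALB, APOB and TTR were not listed. The 3 listed epithelial markers summed to 330 to 353 FPKM in Scramble, 290 to 309 after Si-KDM4C#1 and 240 to 254 after Si-KDM4C#2. Of these 3, 1 was under 1 FPKM in every library, and EPCAM was not listed. The 4 listed leukocyte and 3 endothelial markers were under 1 FPKM throughout. The 5 fibroblast markers summed to between 18.3 and 24.4 FPKM, and 3 of them were under 1 FPKM in every library. The part of these markers in the results was not tested.

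MYC was by far the most abundant member. Its mRNA stood at 106, 114 and 119 FPKM in the Scramble libraries, at 333, 308 and 338 after Si-KDM4C#1 and at 162, 167 and 168 after Si-KDM4C#2. All libraries of both siRNAs lay above all Scramble libraries, and all Si-KDM4C#1 libraries lay above those of Si-KDM4C#2. The group means were 113 ± 6.84, 326 ± 16.1 and 165 ± 3.28 FPKM (SD, n = 3), a ratio to Scramble of 2.89 after Si-KDM4C#1 and 1.46 after Si-KDM4C#2. Between 4792 and 18047 fragments per library lay behind these values. In bulk RNA, fewer cells with a transcript and less of it per cell cannot be told apart.

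Each comparison was fitted with limma on log2(FPKM + 1) over the 14363 genes that averaged 1 FPKM or more in some group, and a gene passed where its Benjamini-Hochberg adjusted p was under 0.05. The log2 fold changes below are on this scale, which understates the change of low genes. MYC rose after Si-KDM4C#1 by 1.52 (SE 0.0511, adjusted p = 1.88e-08, limma) and after Si-KDM4C#2 by 0.55 (SE 0.0511, adjusted p = 1.43e-05). The direct comparison of Si-KDM4C#2 with Si-KDM4C#1 gave a difference of -0.98 (95% interval -1.09 to -0.86, adjusted p = 2.82e-07, limma). With both siRNAs together the rise was 1.04, and it was 0.99 without Scramble replicate 1. Among all tested genes the rise of MYC ranked 127 of 14363 after Si-KDM4C#1 and 1965 after Si-KDM4C#2. By mean level MYC ranked 245 of the 32906 listed genes in Scramble, 77 after Si-KDM4C#1 and 158 after Si-KDM4C#2.

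**Figure D1:**
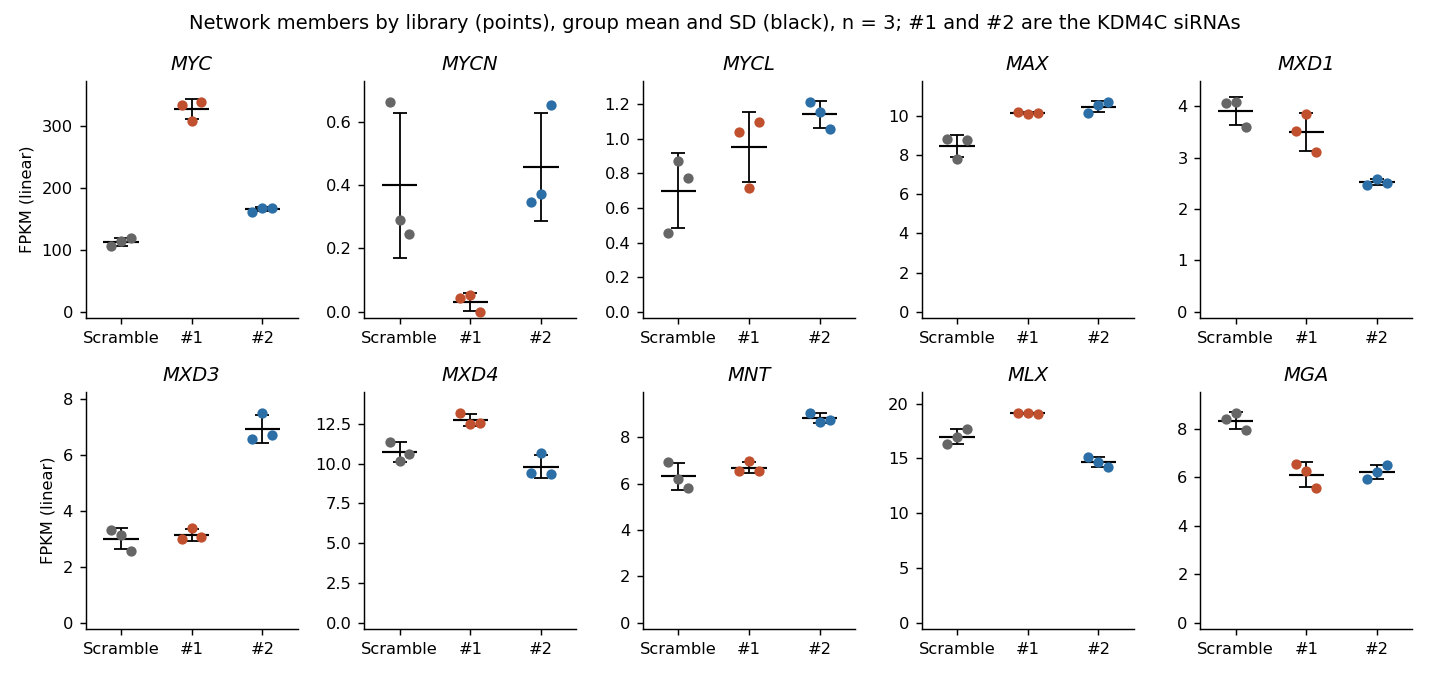
FPKM (linear axes, a scale of its own for each gene) of the 10 members in each library, with group means and SD in black (n = 3). MYC was above Scramble in all libraries of both siRNAs, MXD3 and MNT were high after Si-KDM4C#2, and MGA was low with both.

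The MYC gene lies on chromosome 8 from 127735434 to 127741434 on the plus strand (GRCh38, GENCODE 29), and its noncoding neighbour PVT1 was the tested transcript of a list of 6 transcripts near MYC, MYCN and MYCL, 3 of them listed. PVT1 stood at 10.2 ± 0.394 FPKM in Scramble, 23.4 ± 1.92 after Si-KDM4C#1 and 12.2 ± 0.253 after Si-KDM4C#2 (SD, n = 3). It rose with both siRNAs, by 1.13 and 0.24 on the log2 scale (adjusted p = 2.05e-07 and 0.00605, limma). As for MYC, the difference of Si-KDM4C#2 from Si-KDM4C#1 was below 0, at -0.89.

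Among 13167 genes that averaged 1 FPKM or more across the 9 libraries, the genes most like MYC in pattern were CDC42EP1 (Pearson r = 0.9974 on log2 values), BCAP31 (0.9957) and MRPL36 (0.9951). These coefficients are a description, since the points share the 3 groups. CDC42EP1, an effector protein of the GTPase CDC42, averaged 33.1 FPKM in Scramble, 76.7 after Si-KDM4C#1 and 46.4 after Si-KDM4C#2. The endoplasmic reticulum protein gene BCAP31 averaged 46.5, 64.2 and 52.5 FPKM, and MRPL36, a mitochondrial ribosomal protein gene, averaged 20.7, 45.5 and 28.0 FPKM in the same order.

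The paralogs of MYC were low, and MYCN after Si-KDM4C#1 was close to the limit of detection. MYCN, best known from neuroblastoma and on chromosome 2 (15940564 to 15947007), stood at 0.662, 0.290 and 0.247 FPKM in Scramble, at 0.0426, 0.0527 and 0 after Si-KDM4C#1 and at 0.347, 0.370 and 0.653 after Si-KDM4C#2. The Si-KDM4C#1 libraries held 2, 2 and 0 fragments of it, at or under the 3 fragments taken as the floor, while the other 6 libraries held 11 to 29. MYCN missed the expression filter and was read from the fit over all 32906 listed genes, where it was lower after Si-KDM4C#1 by 0.43 (adjusted p = 0.0326, limma) and differed by 0.06 after Si-KDM4C#2 (adjusted p = 0.777). The siRNAs differed by 0.49 (adjusted p = 0.0188, limma). These calls rest on few fragments. The first was lost with the replicate number as a block (adjusted p = 0.0678, limma), and without Scramble replicate 1 (0.0601), any of the Si-KDM4C#1 libraries (0.0846, 0.0797 and 0.105 for replicates 1 to 3) or Si-KDM4C#2 replicate 2 (0.0519), all from limma. The second was lost without any 1 of the Si-KDM4C#1 libraries or without Si-KDM4C#2 replicate 3, with adjusted p of 0.0568, 0.0534, 0.0701 and 0.0634 (limma).

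MYCL, first found amplified in lung cancer and on chromosome 1 (39895426 to 39902256), stood at 0.458, 0.869 and 0.772 FPKM in Scramble, 1.04, 0.717 and 1.09 after Si-KDM4C#1 and 1.21, 1.15 and 1.05 after Si-KDM4C#2. The Si-KDM4C#2 libraries lay above all Scramble libraries, and those of Si-KDM4C#1 overlapped them. MYCL entered the test only through Si-KDM4C#2, the group where it was highest, so its test there was not independent of the filter. Its difference of 0.34 after Si-KDM4C#2 was at the limit (adjusted p = 0.0475, limma). The call was lost in the fit over all listed genes (adjusted p = 0.103, limma) and with the GC adjustment (0.14, adjusted p = 0.426). It was also lost with the replicate block (adjusted p = 0.0785, limma). The same held without each of 7 libraries in turn, that is all but Scramble replicate 2 and Si-KDM4C#1 replicate 2 (adjusted p = 0.0576 to 0.146, limma).

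MAX, the common partner on chromosome 14 (65006174 to 65102695), stood at 8.81, 7.81 and 8.75 FPKM in Scramble, 10.2, 10.1 and 10.1 after Si-KDM4C#1 and 10.1, 10.5 and 10.7 after Si-KDM4C#2. Both siRNA groups lay above all Scramble libraries and overlapped each other. MAX rose by 0.24 after Si-KDM4C#1 (SE 0.0502, adjusted p = 0.0022, limma) and by 0.28 after Si-KDM4C#2 (SE 0.0502, adjusted p = 0.00103). The siRNAs differed by 0.04 for MAX, with a 95% interval from -0.07 to 0.15. The ratio of MYC to MAX in FPKM was 13.4 ± 1.29 in Scramble, 32.2 ± 1.47 after Si-KDM4C#1 and 15.8 ± 0.141 after Si-KDM4C#2 (SD, n = 3). The libraries ranged from 12 to 14.5, from 30.6 to 33.3 and from 15.7 to 16.0, so the groups did not overlap. This is a ratio of mRNAs, and the proteins were not measured here.

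**Figure D2:**
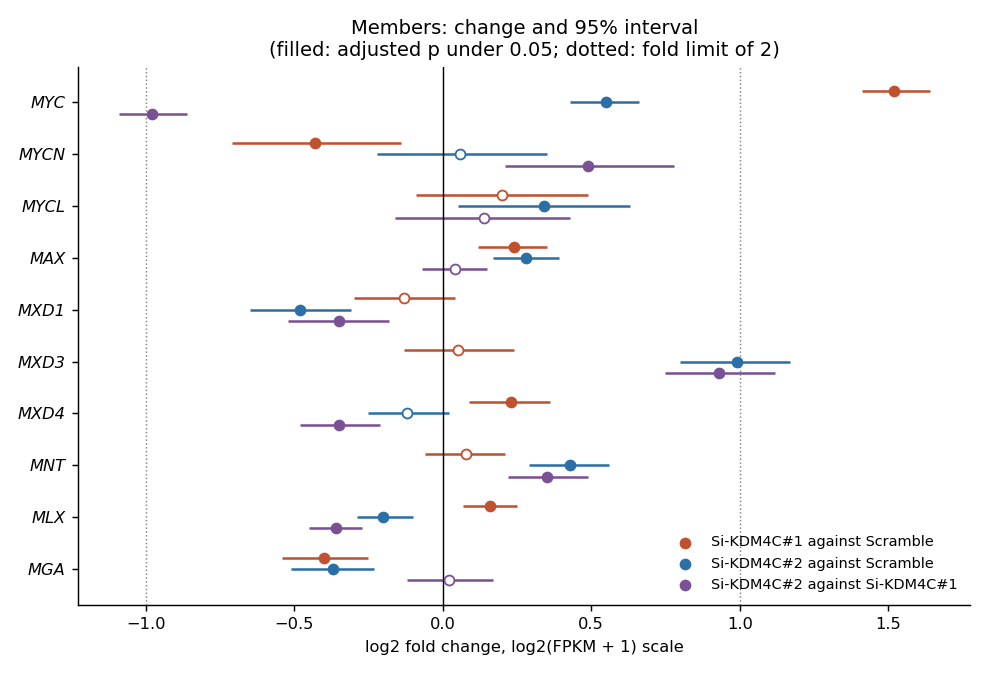
Log2 fold changes on log2(FPKM + 1) of the 10 members in 3 comparisons, with 95% intervals from limma. Filled points have an adjusted p under 0.05, and dotted lines mark a fold of 2. MAX rose and MGA fell with both siRNAs, while MXD3, MNT and MXD1 passed after Si-KDM4C#2 and not after Si-KDM4C#1.

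The MXD proteins and MNT repress through the SIN3 corepressor and compete with MYC for MAX. MXD3, which is linked to dividing cells, stood at 3.29, 3.14 and 2.57 FPKM in Scramble, 2.98, 3.39 and 3.06 after Si-KDM4C#1 and 6.56, 7.49 and 6.70 after Si-KDM4C#2. All Si-KDM4C#2 libraries were above all others, and the Scramble and Si-KDM4C#1 libraries overlapped. MXD3 rose by 0.99 after Si-KDM4C#2 (SE 0.0825, adjusted p = 6.9e-06, limma), a ratio of means of 2.31, and differed by 0.05 after Si-KDM4C#1 (adjusted p = 0.588). The direct difference between the siRNAs was 0.93 (95% interval 0.75 to 1.12, adjusted p = 7.83e-06, limma). The change after Si-KDM4C#2 lay just under the fold limit of 2, and without Scramble replicate 1 (1.04), Scramble replicate 2 (1.01), Si-KDM4C#2 replicate 1 (1.02) or Si-KDM4C#2 replicate 3 (1.01) it lay above. Over the alternative settings the change of MXD3 after Si-KDM4C#2 kept its call and ran from 0.66 to 1.18. With an adjustment for GC content, the Si-KDM4C#1 difference of MXD3 turned to -0.21 (adjusted p = 0.0459, limma).

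MXD3 lies on chromosome 5 (177301461 to 177312757), where its annotated exons overlap those of PRELID1 on the opposite strand over 1158 bases (22.5% of its exon length) and those of RAB24 on the same strand over 926 bases (18.0%). The labels name a library kit without its directional version, and the counting is not stated to use strand, so reads of opposite genes cannot be told apart there. PRELID1, a mitochondrial lipid transfer protein gene, rose by 1.6 after Si-KDM4C#1 and 1.05 after Si-KDM4C#2 (both passed). RAB24, a small GTPase gene, rose by 0.64 after Si-KDM4C#1 and differed by 0.45 after Si-KDM4C#2, which did not pass. The part of these overlaps in the values of MXD3 was not tested.

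MXD1, induced in many cells as they differentiate, fell after Si-KDM4C#2. It stood at 4.06, 4.08 and 3.59 FPKM in Scramble, 3.51, 3.85 and 3.12 after Si-KDM4C#1 and 2.47, 2.58 and 2.5 after Si-KDM4C#2, where all libraries were below all others. The change was -0.48 after Si-KDM4C#2 (SE 0.0738, adjusted p = 0.000373, limma) and -0.13 after Si-KDM4C#1 (adjusted p = 0.15), and the siRNAs differed by -0.35 (95% interval -0.52 to -0.18). MXD1 lies on chromosome 2 (69897688 to 69942945). Its exons share 237 bases (3.7%) with the splicing factor gene SNRNP27 on the same strand, which fell by 0.33 and 0.54 on the log2 scale.

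MXD4, on chromosome 4 (2247432 to 2262294), stood at 11.4, 10.2 and 10.6 FPKM in Scramble, 13.2, 12.5 and 12.5 after Si-KDM4C#1 and 9.43, 10.7 and 9.34 after Si-KDM4C#2. All Si-KDM4C#1 libraries lay above all Scramble libraries, and the Si-KDM4C#2 libraries overlapped Scramble. MXD4 rose after Si-KDM4C#1 by 0.23 (SE 0.06, adjusted p = 0.00743, limma), but differed by 0.01 with the GC adjustment (adjusted p = 0.921). With Si-KDM4C#2 the difference was -0.12 (adjusted p = 0.118, limma). It passed with quantile normalization (-0.21), limma voom on recovered fragments (-0.19), the GC adjustment (-0.39) and without Si-KDM4C#2 replicate 2 (-0.17). The siRNAs differed by -0.35 (adjusted p = 0.000696, limma).

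MNT, the broadly expressed antagonist on chromosome 17 (2384060 to 2401118), stood at 6.93, 6.17 and 5.81 FPKM in Scramble, 6.53, 6.99 and 6.55 after Si-KDM4C#1 and 9.06, 8.65 and 8.72 after Si-KDM4C#2. All Si-KDM4C#2 libraries were above all others, and the other groups overlapped. MNT rose by 0.43 after Si-KDM4C#2 (SE 0.0605, adjusted p = 0.000216, limma) and differed by 0.08 after Si-KDM4C#1 (adjusted p = 0.288). The latter value was 0.15 with limma voom (adjusted p = 0.0411), 0.14 without Scramble replicate 1 (adjusted p = 0.0479, limma) and -0.14 with the GC adjustment (adjusted p = 0.0258, limma), so its direction depends on the processing. The rise of MNT after Si-KDM4C#2 kept its call over the alternative settings but ran from 0.17 to 0.48. With both siRNAs together MNT rose by 0.25 (adjusted p = 0.00211, limma). That call was lost with the GC adjustment (0.02, adjusted p = 0.755, limma). The siRNAs differed by 0.35 (adjusted p = 0.000675, limma). The exons of MNT share 1065 bases (12.2%) with an annotated antisense gene, AC006435.1.

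MXI1, the MXD family member outside the 10 symbols, was the most abundant of the family. It stood at 32.2, 30.4 and 33.5 FPKM in Scramble, 31.7, 30.6 and 32.0 after Si-KDM4C#1 and 19.0, 20.8 and 21.6 after Si-KDM4C#2, where all libraries were below all others. It fell after Si-KDM4C#2 by 0.62 (SE 0.0533, adjusted p = 7.97e-06, limma). With Si-KDM4C#1 it differed by -0.03 (adjusted p = 0.672, limma), and by -0.21 with quantile normalization (adjusted p = 0.00702). Thus the antagonists moved in different directions after Si-KDM4C#2, with MXD3 and MNT higher and MXD1 and MXI1 lower.

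The summed level of MXD1, MXD3, MXD4, MXI1 and MNT was 56.0 ± 1.96 FPKM in Scramble, 57.5 ± 0.389 after Si-KDM4C#1 and 48.5 ± 1.86 after Si-KDM4C#2 (SD, n = 3). MYC relative to this sum was 2.02 ± 0.168, 5.68 ± 0.27 and 3.41 ± 0.0769, and the libraries of the 3 groups did not overlap (1.83 to 2.13, 5.38 to 5.91 and 3.33 to 3.47). Without MXI1, the other 4 genes summed to 23.9 ± 1.57, 26.1 ± 0.726 and 28.1 ± 1.17 FPKM, and the ratio was 4.74 ± 0.585, 12.5 ± 0.931 and 5.9 ± 0.239. The order of the sums between Scramble and Si-KDM4C#2 was therefore set by MXI1.

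**Figure D3:**
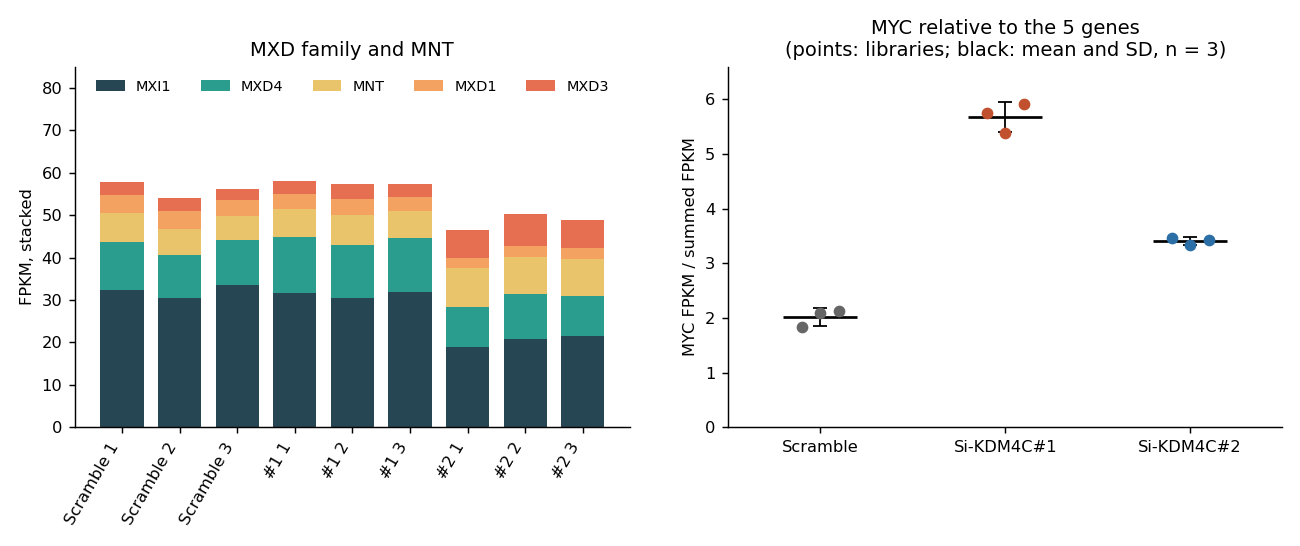
Left, stacked FPKM of MXI1, MXD4, MNT, MXD1 and MXD3 in each library. Right, MYC divided by this sum, with points for libraries and mean and SD in black (n = 3). MXI1 took the largest part of every bar and was smaller after Si-KDM4C#2, and the ratio was highest after Si-KDM4C#1 (5.38 to 5.91).

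MLX stood at 16.3, 17.0 and 17.6 FPKM in Scramble, 19.2, 19.1 and 19.0 after Si-KDM4C#1 and 15.2, 14.7 and 14.2 after Si-KDM4C#2. The groups did not overlap, and the siRNAs moved it in opposite directions. It rose after Si-KDM4C#1 by 0.16 (SE 0.0407, adjusted p = 0.00585, limma), a call lost with quantile normalization (0.03) and with the GC adjustment (0.09). It fell after Si-KDM4C#2 by 0.20 (adjusted p = 0.0024, limma), and the siRNAs differed by -0.36 (95% interval -0.45 to -0.27, adjusted p = 4.26e-05). MLX lies on chromosome 17 (42567068 to 42573239) and shares 770 bases of exon (18.1%) with the recombination gene PSMC3IP on the opposite strand, which rose by 0.49 and 0.58. MLXIP, its partner MondoA, averaged 8.25 ± 0.4, 11.2 ± 0.697 and 9.75 ± 0.416 FPKM (SD, n = 3). MLXIP rose by 0.40 after Si-KDM4C#1 (adjusted p = 0.000167, limma) and by 0.22 after Si-KDM4C#2 (adjusted p = 0.00848), the latter a call lost with the GC adjustment (0.03). MLXIPL, which encodes ChREBP, averaged 2.56, 2.82 and 2.70 FPKM and passed in neither comparison (0.11 and 0.06), though with the GC adjustment it was lower after Si-KDM4C#2 (-0.28, adjusted p = 0.0136, limma).

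The E-box CACGTG, the motif that the dimers of this network bind, was searched in the RefSeq promoter windows of the members, from 250 bases before to 50 bases after each annotated start. The motif is its own reverse complement, so both strands were covered. A window was held for 9 of the 10 members, all but MYC, and 3 of these 9 genes (33.3%) had the motif, against 2396 of 27305 genes with a window (8.77%). To show where it lies, the motif is printed for MXD4, MNT and MLX with up to 20 bases on each side from within the window, 5′ to 3′ on the strand of the gene and with the E-box in capitals. They lie 238, 193 and 50 bases before the start, at chr4:2262322-2262359 (minus strand), chr17:2401228-2401273 (minus strand) and chr17:42567030-42567075 (plus strand) in GRCh38.p14.
MXD4: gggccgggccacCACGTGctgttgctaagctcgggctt
MNT: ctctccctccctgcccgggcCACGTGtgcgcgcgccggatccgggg
MLX: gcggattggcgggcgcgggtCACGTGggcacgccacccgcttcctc
A match is a description of these letters, and no binding was measured. MXD4 and MLX with the motif were higher after Si-KDM4C#1, though both calls were lost with the GC adjustment (0.01 and 0.09). MNT was higher after Si-KDM4C#2 and MLX was lower there, so the 3 genes did not move together.

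MGA, the largest protein of the network, pairs with MAX in a Polycomb complex. It lies on chromosome 15 (41621224 to 41773081). Its mRNA stood at 8.39, 8.67 and 7.97 FPKM in Scramble, 6.54, 6.25 and 5.54 after Si-KDM4C#1 and 5.93, 6.22 and 6.51 after Si-KDM4C#2. All siRNA libraries lay below all Scramble libraries, and the siRNA groups overlapped. MGA fell by 0.40 after Si-KDM4C#1 (SE 0.0629, adjusted p = 0.000357, limma) and by 0.37 after Si-KDM4C#2 (SE 0.0629, adjusted p = 0.000685). The siRNAs differed by 0.02 for MGA, with a 95% interval from -0.12 to 0.17.

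By mean level per length, the order in Scramble was MYC, MLX, MXD4, MAX, MGA, MNT, MXD1, MXD3, MYCL and MYCN. MAX and MGA overlapped between libraries, as did MYCL and MYCN, and the other neighbours did not. With Si-KDM4C#1, MNT and MGA changed places and overlapped, and MXD1 and MXD3 overlapped. With Si-KDM4C#2, MAX stood above MXD4 with overlap, and MXD3 (6.92 ± 0.504 FPKM) moved above MGA (6.22 ± 0.291 FPKM) and MXD1 (2.52 ± 0.0573 FPKM) with no overlap.

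Of the 9 members tested, 5 passed after Si-KDM4C#1, 4 higher (MYC, MAX, MXD4 and MLX) and 1 lower (MGA). Over all tested genes 65.7% passed, 31.7% higher and 33.9% lower. With Si-KDM4C#2, 8 passed, 5 higher (MYC, MYCL, MAX, MXD3 and MNT) and 3 lower (MXD1, MLX and MGA), against 59.4% of all tested genes, 34.4% higher and 25.0% lower. Between the siRNAs 6 passed, 2 higher after Si-KDM4C#2 (MXD3 and MNT) and 4 lower (MYC, MXD1, MXD4 and MLX), against 62.4% of all, 35.9% higher and 26.5% lower. With both siRNAs together 6 passed, against 63.4% of all. The count after Si-KDM4C#1 was near the background, and that after Si-KDM4C#2 includes MYCL, which passed the filter only through that group. The median absolute log2 fold change of the members was 0.201 after Si-KDM4C#1 and 0.372 after Si-KDM4C#2, beside 0.368 and 0.301 over all tested genes.

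With a fold limit of 2 added, the limit the study used, MYC alone passed after Si-KDM4C#1, where 8.87% of all tested genes did, and 2 members passed with limma voom. After Si-KDM4C#2, where 4.89% of all genes passed, the count of members was 0 on log2(FPKM + 1) with all libraries, at the adjusted and the unadjusted p. It was 1 with a pseudocount of 0.1, with limma voom on recovered fragments and without Scramble replicate 1 or 2 or Si-KDM4C#2 replicate 1 or 3. Between the siRNAs, where 6.91% of all genes passed, the count was also 0 with those settings, at the adjusted and the unadjusted p. It was 1 with a pseudocount of 0.1, with the GC adjustment and without Si-KDM4C#1 replicate 2, and 3 with voom. With both siRNAs together MYC passed, against 4.14% of all genes, and the count of members fell to 0 with quantile normalization, with the GC adjustment and without Scramble replicate 1.

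Genes that MYC is known to activate were mostly higher. The list, drawn from general knowledge with earlier results of these data known, had 30 genes, of which 28 were tested. With Si-KDM4C#1, 19 rose (67.9%, beside 31.7% of all tested genes) and 6 fell (21.4%, beside 33.9%), with a median of 0.53 beside -0.03 over all tested genes. With Si-KDM4C#2, 18 rose (64.3%, beside 34.4%) and 4 fell (14.3%, beside 25.0%), with a median of 0.37 beside 0.06. For Si-KDM4C#2, 15 rose and 5 fell with quantile normalization (median 0.25 beside 0.01) or with the GC adjustment (0.21 beside 0). With limma voom, 17 rose and 5 fell after Si-KDM4C#2 (median 0.22 beside 0). Both comparisons share the Scramble libraries. In Si-KDM4C#2 against Si-KDM4C#1 directly, 9 were higher (32.1%, beside 35.9%) and 12 lower (42.9%, beside 26.5%), with a median of -0.08 beside 0.08. The nucleolar genes moved unequally. BOP1, needed for ribosome assembly, rose from 26.8 ± 2.2 FPKM in Scramble to 63.9 ± 3.91 after Si-KDM4C#1 and 43.6 ± 1.71 after Si-KDM4C#2 (SD, n = 3), and NOP56, a component of the box C/D particles, rose from 27.5 to 38.9 and 45.2 FPKM. NPM1, the nucleolar chaperone nucleophosmin, fell after Si-KDM4C#1 from 416 ± 32.7 to 106 ± 4.77 FPKM (log2 fold change -1.96, adjusted p = 1.07e-08, limma) and stood at 431 ± 9.22 after Si-KDM4C#2. NCL, which encodes nucleolin, fell from 76.2 to 23.8 FPKM after Si-KDM4C#1 and rose to 101 after Si-KDM4C#2. SHMT2, the mitochondrial serine hydroxymethyltransferase, rose by 0.54 after Si-KDM4C#1 and fell by 1.34 after Si-KDM4C#2. The chaperonin gene HSPD1 rose by 1.3 after Si-KDM4C#2 and differed by 0.08 after Si-KDM4C#1. Of the 25 genes on this list with a promoter window, 17 (68.0%) held the E-box.

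Genes that MYC is known to repress moved to both sides, and after Si-KDM4C#2 more of them were lower than higher. Of 14 tested, 5 rose (35.7%, beside 31.7% of all tested genes) and 7 fell (50%, beside 33.9%) after Si-KDM4C#1. The median was -0.20, beside -0.03 over all tested genes. After Si-KDM4C#2, 2 rose (14.3%, beside 34.4%) and 7 fell (50%, beside 25.0%), with a median of -0.19 beside 0.06. With both siRNAs together 4 rose and 8 fell, with a median of -0.5 beside 0.01. Of the 12 genes with at least 1 FPKM in every library, 5 rose and 5 fell after Si-KDM4C#1 (median 0.07 beside 0.02). After Si-KDM4C#2, 2 of these 12 rose and 5 fell (median -0.04 beside 0.07). With quantile normalization, limma voom or the GC adjustment, 2 of the 14 rose and 8 fell after Si-KDM4C#2. CDKN1A, the cell cycle inhibitor p21, stood at 207 ± 10.1 FPKM in Scramble, rose to 464 ± 42.9 after Si-KDM4C#1 and fell to 47.8 ± 1.64 after Si-KDM4C#2 (SD, n = 3), log2 fold changes of 1.16 and -2.09. CDKN1B, the related inhibitor p27, fell from 25.6 to 10.7 FPKM after Si-KDM4C#1 and stood at 28.1 after Si-KDM4C#2, which did not pass. NDRG1, a gene of stress and differentiation, fell with both siRNAs, by 0.87 and 1.13. GAS1, a growth arrest gene, rose with both, by 0.80 and 1.18. The chaperone gene CLU, which encodes clusterin, fell after Si-KDM4C#1 by 1.1 and differed by -0.09 after Si-KDM4C#2. Of the 9 genes here with a window, 1 (11.1%) held the E-box.

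**Figure D4:**
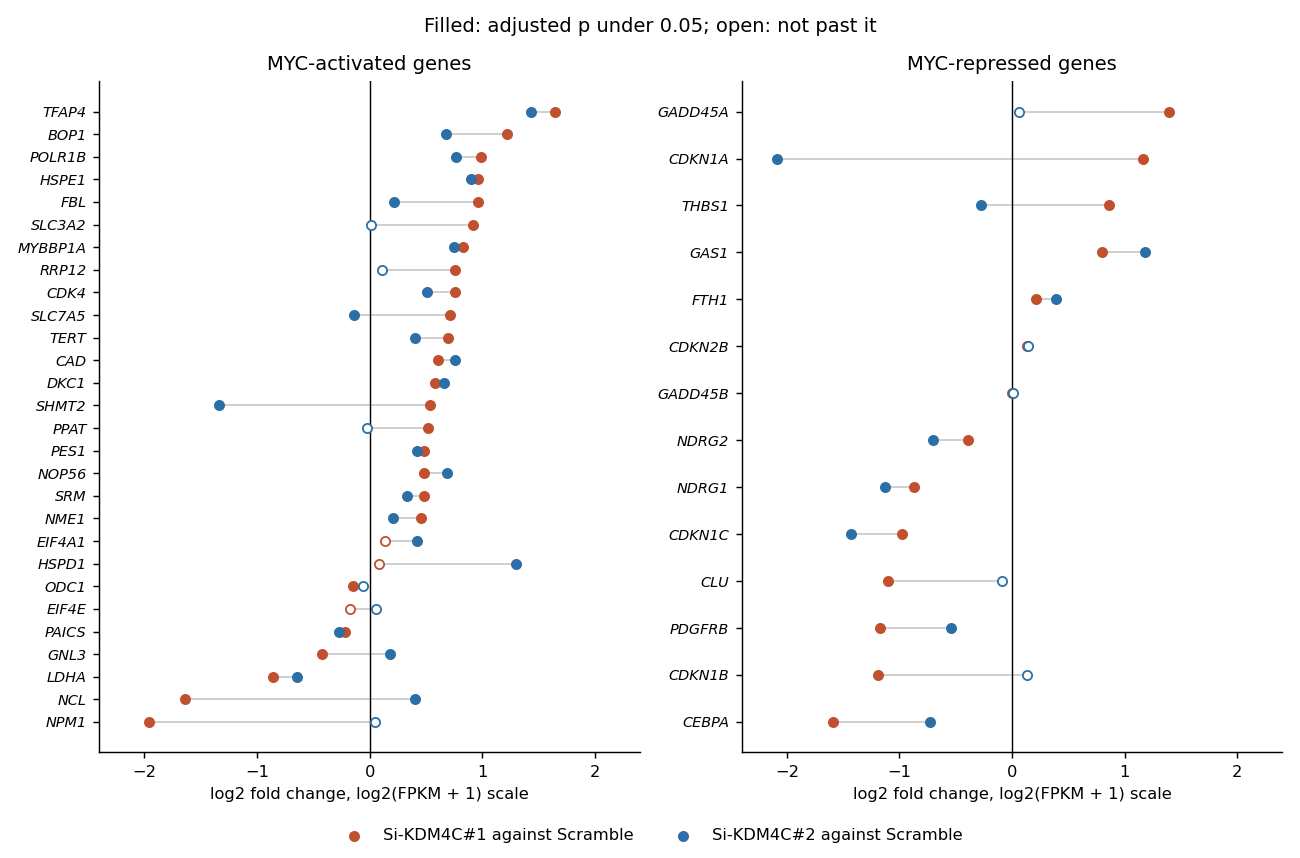
Log2 fold changes on log2(FPKM + 1) of the tested MYC-activated (left) and MYC-repressed genes (right) after Si-KDM4C#1 (orange) and Si-KDM4C#2 (blue), each against Scramble. Filled points passed and open points did not. Most MYC-activated genes lay right of 0 with both siRNAs (19 and 18 of 28 passed there), while NPM1 and NCL lay far left after Si-KDM4C#1 and CDKN1A lay on opposite sides.

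The SIN3 corepressor, which the MXD proteins and MNT recruit, had 13 tested genes. Of these, 4 rose (30.8%, beside 31.7% of all tested genes) and 8 fell (61.5%, beside 33.9%) after Si-KDM4C#1. After Si-KDM4C#2, 5 rose (38.5%, beside 34.4%) and 3 fell (23.1%, beside 25.0%), shares near those of all genes. HDAC1, its histone deacetylase, rose from 21.4 ± 0.268 FPKM to 47.2 ± 1.83 and 48.5 ± 1.42 (SD, n = 3) with the 2 siRNAs. HDAC2, the paralogous deacetylase, fell from 13.0 to 5.66 FPKM after Si-KDM4C#1 and stood at 14.1 after Si-KDM4C#2, which did not pass. The subunit genes BRMS1 (1.19 and 0.48) and SAP30 (0.33 and 0.94) rose with both siRNAs, and SUDS3 fell with both, by 0.56 and 0.67. Of 13 tested genes of the MGA complex, which also holds HDAC1 and HDAC2, 6 rose (46.2%, beside 31.7%) and 5 fell (38.5%, beside 33.9%) after Si-KDM4C#1, and 8 rose (61.5%, beside 34.4%) and 1 fell (7.69%, beside 25.0%) after Si-KDM4C#2. TFDP1, the dimer partner of E2F factors, rose from 43.5 to 69.8 and 88.1 FPKM, and CBX1, which encodes the heterochromatin protein HP1 beta, rose from 44.6 to 64.0 and 76.8 FPKM. CBX3, which encodes HP1 gamma, fell from 51.8 to 25.5 FPKM after Si-KDM4C#1 and rose to 63.8 after Si-KDM4C#2.

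Of 15 tested MYC cofactors, 6 rose (40.0%, beside 31.7% of all tested genes) and 6 fell (40.0%, beside 33.9%) after Si-KDM4C#1. After Si-KDM4C#2, 10 rose (66.7%, beside 34.4%) and 0 fell (beside 25.0%) in limma on log2(FPKM + 1), where the count of lower genes was 0 at the unadjusted p as well. With quantile normalization, limma voom or the GC adjustment, 1 fell. SKP2, a ubiquitin ligase subunit that acts on MYC and p27, rose from 27.9 ± 0.219 FPKM to 79.7 ± 2.23 and 36.0 ± 1.56 (SD, n = 3). WDR5, which docks MYC on chromatin, rose by 0.91 and 0.60, and the acetyltransferase gene KAT2A by 0.40 and 0.52. BPTF, a subunit of the remodeller NURF, fell after Si-KDM4C#1 by 1.03 and differed by 0.17 after Si-KDM4C#2. ACTL6A, which encodes an actin-related subunit of remodelling complexes, rose by 0.71 after Si-KDM4C#2 and differed by -0.11 after Si-KDM4C#1, and the ATPase gene RUVBL1 rose with both, by 0.21 and 0.50. Of 13 tested genes of MYC protein turnover, 5 rose and 5 fell after Si-KDM4C#1 (38.5% each, beside 31.7% and 33.9%), and 8 rose (61.5%, beside 34.4%) and 3 fell (23.1%, beside 25.0%) after Si-KDM4C#2. For these turnover genes after Si-KDM4C#2, 6 rose and 5 fell with limma voom, and 6 rose and 4 fell with the GC adjustment. With quantile normalization 7 rose and 4 fell. The deubiquitinase gene USP28, whose product spares MYC from degradation, fell with both siRNAs, by 0.79 and 0.99, as did USP7, by 0.71 and 0.24. USP36, a nucleolar deubiquitinase gene, rose by 0.49 and 0.40, and PPP2R5A, a phosphatase subunit gene, by 0.48 and 0.13. SET, which encodes a phosphatase inhibitor, fell by 0.76 after Si-KDM4C#1 and rose by 0.31 after Si-KDM4C#2, and CIP2A, another such inhibitor, rose by 0.37 after Si-KDM4C#2 and differed by 0.05 after Si-KDM4C#1.

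Targets of MLX with MondoA or ChREBP included the brake on glucose uptake TXNIP. Of 4 tested, 1 rose and 2 fell after Si-KDM4C#1, where 31.7% and 33.9% of all tested genes did. After Si-KDM4C#2, 1 rose and 3 fell, where 34.4% and 25.0% of all tested genes did. TXNIP fell from 141 ± 7.33 FPKM to 102 ± 2.98 and 68.6 ± 4.55 (SD, n = 3). HK2, which encodes hexokinase, fell from 33.9 to 26.6 and 16.0 FPKM. ARRDC4, an arrestin gene related to TXNIP, fell after Si-KDM4C#2 by 0.42 and differed by -0.23 after Si-KDM4C#1. PFKFB3, a regulator of glycolysis, rose by 0.92 and 0.24. Its call after Si-KDM4C#2 was lost with the GC adjustment and in the fit over all listed genes. NPM1, HSPD1, CBX3 and SET have processed pseudogenes, and how reads shared with such copies were counted is not stated, so the values of these 4 genes are uncertain to that extent.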

How the data were processed

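Total RNA of 9 libraries (3 groups of 3) was sequenced paired-end. FPKM values were deposited by the authors, 1 list for each library. The submitters' processing notes name HISAT2 2.1.0, StringTie 1.3.3b, featureCounts, DESeq 1.28.0, FastQC 0.11.5 and GRCh38. The annotation, the strand setting and the scaling between libraries are not given in the sources used here, and strand-blind counting would mix overlapping genes.

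The members and gene lists were chosen with earlier results of these data known. Lists came from general knowledge, and up to 3 genes with the smallest adjusted p per list and siRNA were named. Genes were compared with limma 3.58.1 in R 4.3.3, with a trend and all 9 libraries in 1 fit, on log2(FPKM + 1), for genes averaging 1 FPKM or more in some group. Benjamini-Hochberg adjustment ran over all tested genes. Confidence intervals are at 95%.

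With GENCODE 29 exon lengths, the deposited FPKM gave whole fragments, within 0.05, in all libraries for 32076 genes (97.48%). The floor of 3 fragments is 0.166 to 0.206 FPKM per kilobase of exon, for counting error only. Alternatives were no filter, at least 1 FPKM in every library, quantile normalization, a pseudocount of 0.1, a block for the replicate number, only the libraries of a comparison, limma voom on the fragments (at least 10 in 3 libraries), a lowess GC adjustment (span 0.3), an FDR of 0.01 and leaving out each library. The limma and limma voom fits were tested on simulated data, with far fewer changed genes than here and larger changes than most members had. Promoter windows are from RefSeq (GRCh38.p14). Python 3.11.15 and matplotlib 3.10.9 made the tables and plots.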

Additional observations from a re-analysis of the deposited data

Results flagged for a closer look

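For 7 members the effects of the siRNAs differed in the direct comparison of Si-KDM4C#2 with Si-KDM4C#1 by limma. On the log2(FPKM + 1) scale the difference was -0.98 for MYC, which rose with both siRNAs. It was 0.93 for MXD3 and 0.35 for MNT, which were higher after Si-KDM4C#2 than after Si-KDM4C#1. It was -0.35 for MXD1 and -0.35 for MXD4, which were lower there. It was -0.36 for MLX, which rose after Si-KDM4C#1 and fell after Si-KDM4C#2. It was 0.49 for MYCN, which was read from the fit over all listed genes and rests on under 30 fragments per library. The siRNAs also differed in how far KDM4C was lowered, and KDM4B passed as lower after Si-KDM4C#2 and not after Si-KDM4C#1. The depth of silencing and the sequence of the siRNA cannot be told apart in this design.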

How the results depend on the processing

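MYC kept its direction and its call at the adjusted p in every comparison under all alternatives, with 1.34 to 1.6 for Si-KDM4C#1 and 0.37 to 0.55 for Si-KDM4C#2 (1.48 to 1.56 and 0.5 to 0.59 with 1 library left out). Of the members past the test with Si-KDM4C#1 there were 5, and 8 with limma voom on recovered fragments, with or without the block, MYCN, MYCL and MNT being added. With the GC adjustment 2 were higher and 3 lower, beside 4 higher and 1 lower without it. MXD4 and MLX lost their calls there, and MXD3 and MNT passed as lower. Members past the fold limit as well numbered 1 with Si-KDM4C#1, and 2 with voom with or without the block. With Si-KDM4C#2 they numbered 0, and 1 with a pseudocount of 0.1 or voom with or without the block (0 to 1 with a library left out). Between the siRNAs they numbered 0, 1 with the pseudocount or the GC adjustment with or without the block, and 3 with voom with or without the block (0 to 1 with a library left out). With both siRNAs together they numbered 1, 0 with quantile normalization or the GC adjustment with or without the block, and 2 with voom with or without the block (0 to 1 without a library, 0 being without Scramble replicate 1). Over all genes voom gave 3024 past the fold limit with Si-KDM4C#1 against 1274, 1993 against 703 with Si-KDM4C#2, 2565 against 992 between the siRNAs and 1815 against 594 for both together, and the pseudocount of 0.1 gave 2302, 1443, 1937 and 1294. Of the SIN3 genes, 8 against 5 rose with Si-KDM4C#2 under the GC adjustment. Of the MYC turnover genes, 5 against 3 fell there with voom, and of the MYC cofactors 1 against 0 fell there with voom, quantile normalization or the GC adjustment without the block.

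Directions turned as follows, mostly for values near 0. With Si-KDM4C#1, the GC adjustment gave 0.01 for MXD1, -0.21 for MXD3, -0.14 for MNT, 0.07 for MXI1 and -0.17 for MLXIPL, the same with the block. Voom gave 0.04 for MXI1 with or without the block, and without Scramble replicate 3 MXD3 gave -0.03 and MXI1 0.0036 (ranges with 1 library left out -0.03 to 0.11 and -0.06 to 0.0036). With Si-KDM4C#2, the GC adjustment gave -0.28 for MLXIPL with or without the block, MYCN gave -0.01 without Scramble replicate 3 and -0.03 without Si-KDM4C#2 replicate 3, and MLXIPL gave -0.0037 without Scramble replicate 2 (ranges with 1 library left out -0.03 to 0.19 and -0.0037 to 0.13). Between the siRNAs, quantile normalization gave -0.04 for MYCL, -0.01 for MAX and -0.08 for MGA, voom gave -0.08 for MAX and -0.1 for MGA, and the GC adjustment gave -0.0033 for MAX and -0.1 for MGA, voom and GC the same with the block. MGA gave -0.03 without Si-KDM4C#1 replicate 3 and -0.0048 without Si-KDM4C#2 replicate 3, and MLXIPL 0.0032 without Si-KDM4C#2 replicate 1. With both siRNAs together, MXD4 gave -0.02 with quantile normalization and -0.19 with the GC adjustment (adjusted p = 0.00608, limma), MLXIPL -0.22 with the GC adjustment, both the same with the block, and MLX 0.01 without Scramble replicate 3. The causes were not tested. Over all alternatives, 2154 values kept direction and call or, for counts, stayed close, 39 turned, 34 lost and 23 gained a call, and 52 counts moved further.

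Deviations from the group means correlated by 0.0162 on average over 9 pairs of libraries with the same replicate number (-0.0461 to 0.0546) and by -0.00808 over 18 pairs with different numbers, so the numbers were not taken to pair the libraries. With the replicate block MYC gave 1.52 and 0.55. The block alone ended 2 calls among the network genes, those of MYCN with Si-KDM4C#1 and MYCL with Si-KDM4C#2. Low counts limit MYCN most, with 0 to 29 fragments per library, beside 35 to 95 for MYCL.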

Other observations

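Germline genes that E2F6 and the MGA complex keep silent in somatic cells were mostly very low. Of a list of 10, 7 were listed and 2 tested. STAG3, which encodes a meiotic cohesin subunit, stood at 1.7 ± 0.3 FPKM in Scramble, 0.803 ± 0.0468 after Si-KDM4C#1 and 0.936 ± 0.0531 after Si-KDM4C#2 (SD, n = 3) and was lower with both siRNAs (-0.58 and -0.47, adjusted p = 0.000823 and 0.00328, limma). STAG3 passed the filter only through Scramble, the group where it was highest. TDRKH, a gene of the piRNA pathway, averaged 2.43, 2.47 and 3.54 FPKM and was higher after Si-KDM4C#2 (0.41, adjusted p = 0.000906, limma). The part of MGA in these values was not tested.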
